A study of Mus musculus with 12 samples.

Results

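A set of 10 genes of vascular growth signalling were followed in mouse retinal explants cultured at 5 mM or 25 mM glucose. They are the angiopoietins Angpt1 and Angpt2, the angiopoietin-like gene Angptl2, the VEGF relatives Pgf, Vegfb and Vegfc, the peptide gene Apln and its receptor gene Aplnr, the platelet-derived growth factor gene Pdgfb, and Rhoj. All 10 were found among the 53707 rows of the gene table, and all 10 were among the 21061 genes that passed the filter on low counts. They were chosen by name, with their measured differences between 25 mM and 5 mM in these libraries already known, so those differences are given as a description and without a test. Of the 10, 8 encode secreted ligands, while Aplnr encodes a receptor and Rhoj a small GTPase inside the cell.

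The retinas came from wild-type C57BL/6J mice at postnatal day 28 and were freed of sclera and pigment epithelium, then kept for 48 hours in Neurobasal-A medium with B27 and N2 supplements at one of the 2 glucose concentrations. Each concentration had 3 biological replicates, and each replicate had 2 technical replicates, the first in batch 1 and the second in batch 2, which makes 12 RNA-seq libraries from total RNA. Whether a biological replicate was 1 retina, 1 mouse or a pool is not given in the sources used here. An isolated retina has no blood flow, and how its vessels fared over the 48 hours was not measured here.

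In the growing eye, Angpt1 from perivascular and other cells activates the endothelial receptor TIE2 and stabilises vessels, whereas Angpt2, released by endothelial cells at sites of remodelling, can block or weakly activate the same receptor. VEGF family members act through the receptors FLT1, KDR and FLT4, apelin marks sprouting tip cells and signals to its G protein-coupled receptor, and PDGF-B from endothelium recruits pericytes that carry PDGFRB. RhoJ is a small GTPase of endothelial cells that shapes their movement. ANGPTL2 shares the fold of the angiopoietins but does not bind TIE2, and PIRB and integrins are among its known receptors.

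On GRCm38, Angptl2 (ENSMUSG00000004105) spans chromosome 2 from 33216069 to 33247717 on the plus strand, inside Ralgps1 on the opposite strand. Rhoj (ENSMUSG00000046768) lies on chromosome 12 from 75308322 to 75401456, plus strand. Angpt2 (ENSMUSG00000031465) occupies chromosome 8 from 18690263 to 18741562 on the minus strand, inside Mcph1 on the opposite strand. Exons of Angpt1 (ENSMUSG00000022309, chromosome 15, 42424723 to 42676977) share 737 bases with the antisense gene Gm17473, and the counting is not stated to use strand, so the low values of Angpt1 are uncertain. All 10 genes are annotated as protein coding.

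Promoter sequences from RefSeq (GRCm38.p6) were at hand for 6 of the 10 genes. Those of 4 genes are shown over the 250 bases before the start, to set Angptl2 and Rhoj, the genes with the largest difference and with the smallest standard error, beside the ligands Apln and Vegfb. Capitals mark the GC box GGGCGG and the ETS core CGGAA, each on either strand.
Angptl2, chr2:33215711-33215960, plus strand: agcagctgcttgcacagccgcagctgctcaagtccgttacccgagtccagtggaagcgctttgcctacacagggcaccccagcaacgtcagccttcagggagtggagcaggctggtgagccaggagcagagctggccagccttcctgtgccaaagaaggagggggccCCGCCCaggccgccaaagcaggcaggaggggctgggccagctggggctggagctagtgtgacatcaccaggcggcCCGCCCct
Rhoj, chr12:75308063-75308312, plus strand: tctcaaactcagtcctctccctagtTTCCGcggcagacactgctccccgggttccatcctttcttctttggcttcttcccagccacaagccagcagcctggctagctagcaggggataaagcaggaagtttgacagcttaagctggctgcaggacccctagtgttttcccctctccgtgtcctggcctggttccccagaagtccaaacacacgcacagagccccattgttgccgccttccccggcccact
Apln, chrX:48034854-48035103, minus strand: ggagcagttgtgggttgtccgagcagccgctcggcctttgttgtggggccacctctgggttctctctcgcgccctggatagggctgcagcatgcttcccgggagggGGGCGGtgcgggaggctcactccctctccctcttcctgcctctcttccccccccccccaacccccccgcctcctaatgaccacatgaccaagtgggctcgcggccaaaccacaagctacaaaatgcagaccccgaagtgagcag
Vegfb, chr19:6987652-6987901, minus strand: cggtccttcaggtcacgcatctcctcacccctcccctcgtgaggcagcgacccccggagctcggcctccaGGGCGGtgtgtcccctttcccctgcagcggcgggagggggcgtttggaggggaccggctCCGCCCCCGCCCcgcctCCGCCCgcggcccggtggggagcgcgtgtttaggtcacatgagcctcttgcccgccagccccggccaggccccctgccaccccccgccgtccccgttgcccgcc
The Angptl2 window held 2 GC boxes, the Apln window 1, and the Vegfb window 4, while the Rhoj window held none and 1 ETS core. A GC box stood in 5 of the 7 promoter windows of the 6 genes (Pgf has 2) and in 32.7% of all 32851 windows of this length. The ETS core was in 1 of 7 windows against 25.2% of all. Neither the hypoxia element core ACGTG, found in 16.6% of all windows, nor the E-box CACGTG, which contains that core and was found in 6.02%, occurred in the 7. The CREB core TGACG was in 1 of 7, the Angptl2 window, against 17.8% of all. The windows of these genes held 58.0% to 76.4% G and C, where the median of all windows was 52.4%, and a match of letters is not a bound site.

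Library totals ran from 14815285 to 36692484 estimated counts, and the 6 summed replicates from 37944826 to 60098862. Of all 12, the lowest total belonged to the first technical library of 25 mM replicate 2, along with the highest mitochondrial share, 15.4% of counts against 5.91% to 11.8% in the other 11. In it 8 of the 10 genes were at their lowest among the 25 mM libraries, and in the second technical replicate of 5 mM replicate 1, 7 of the 10 were at their lowest among the 5 mM libraries. Values are therefore also given without either library. Levels are in CPM, a count scaled to its library total after TMM normalisation (a correction for RNA composition), and each technical pair was summed before the fit.

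Angptl2 was the member furthest below its 5 mM level. It stood at 47.3, 130.0 and 102.0 CPM in the 3 replicates at 5 mM and at 5.63, 15.3 and 22.0 CPM at 25 mM. The lowest 5 mM replicate was thus above the highest 25 mM replicate. Its log2 fold change was -2.70 (standard error 0.53), a level 6.50-fold higher at 5 mM. Among single libraries the 5 mM group ran from 22.8 through a median of 76.3 to 185.0 CPM, and the 25 mM group from 2.97 through 9.72 to 30.1 CPM. Single libraries of the groups overlapped, since the second technical replicate of 5 mM replicate 1 (22.8 CPM) lay below that of 25 mM replicate 3 (30.1 CPM) and of 25 mM replicate 2 (23.2 CPM).

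Angpt2, the remodelling ligand, had 60.6, 124.0 and 124.0 CPM at 5 mM and 6.26, 29.4 and 35.7 CPM at 25 mM. Again the 3 replicates of each group did not overlap, and the log2 fold change was -2.11 (standard error 0.58). Technical replicates of 25 mM replicate 2 gave 3.15 and 46.0 CPM, a 14.6-fold difference within 1 biological replicate, which is the widest within-replicate gap of any of the 10 genes that had counts in both libraries. Angpt1, the stabilising ligand, behaved differently. Its replicates lay at 1.50, 1.27 and 1.53 CPM at 5 mM and at 2.20, 1.56 and 0.972 CPM at 25 mM. These ranges overlapped, with a log2 fold change of 0.14 (standard error 0.35), the only one of the 10 above 0, and -0.17 without 25 mM replicate 1.

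Rhoj had the smallest standard error of the 10. Its 5 mM replicates were 184.0, 178.0 and 156.0 CPM, and its 25 mM replicates were 38.3, 55.5 and 81.3 CPM. All 3 at 5 mM were above all 3 at 25 mM. The log2 fold change was -1.56 (standard error 0.27), a 2.96-fold higher level at 5 mM. In single libraries the range was 85.3 to 253.0 CPM at 5 mM (median 156.0) and 26.6 to 104.0 CPM at 25 mM (median 47.0), so that 1 library of each group crossed over.

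**Figure D1:**
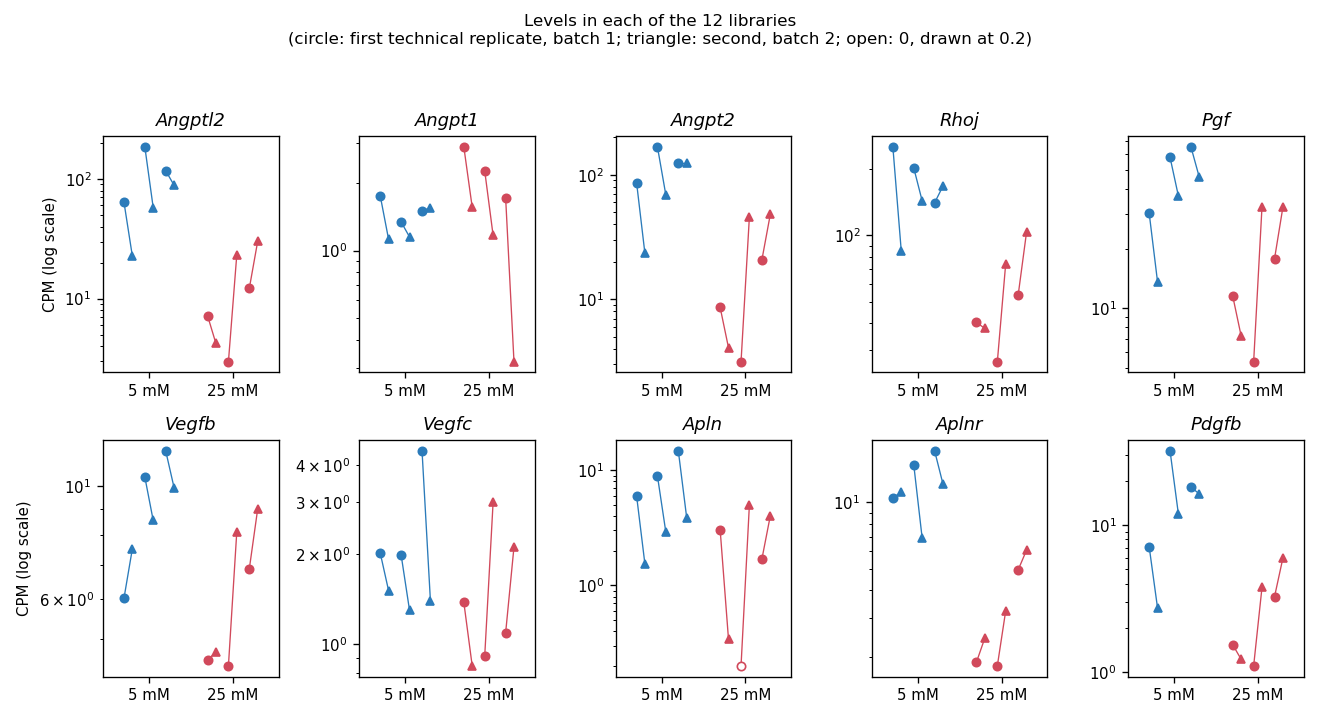
Level of each of the 10 genes in CPM on a log axis in the 12 libraries, with 5 mM in blue and 25 mM in red; circles are first and triangles second technical replicates, and a line joins the pair of 1 biological replicate. Aplnr is the one gene with all 6 libraries at 5 mM above all 6 at 25 mM, while pairs of 25 mM replicate 2 are far apart for Angpt2 and Angptl2.

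Among the VEGF relatives, Pgf, a ligand of FLT1, had 23.5, 48.6 and 55.3 CPM at 5 mM and 9.23, 22.0 and 25.9 CPM at 25 mM. The lowest 5 mM replicate fell within the 25 mM range, and the log2 fold change was -1.16 (standard error 0.43). Vegfb, another FLT1 ligand, had 6.70, 9.62 and 10.8 CPM at 5 mM and 4.54, 6.62 and 8.09 CPM at 25 mM. Its ranges overlapped, with a log2 fold change of -0.49 (standard error 0.31). Vegfc, the lymphatic growth factor that binds FLT4, was low, with 1.82, 1.70 and 2.87 CPM at 5 mM and 1.09, 2.16 and 1.65 CPM at 25 mM. Here too the groups overlapped, and the log2 fold change was -0.39 (standard error 0.36).

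Both partners of the apelin pathway had lower replicates at 25 mM. Apln had 4.17, 6.29 and 9.11 CPM at 5 mM and 1.69, 3.09 and 2.96 CPM at 25 mM. The log2 fold change was -1.34 (standard error 0.38). In the first technical replicate of 25 mM replicate 2 Apln had 0 counts, and 3 counts in a library of that total would be 0.202 CPM, while the second technical replicate had 5.02 CPM. The receptor gene Aplnr had 10.9, 11.4 and 14.6 CPM at 5 mM and 2.11, 2.65 and 5.63 CPM at 25 mM. Its log2 fold change was -1.82 (standard error 0.39), and its 5 mM libraries, from 6.92 to 17.1 CPM (median 11.6), were all above its 25 mM libraries, from 1.82 to 6.09 CPM (median 2.83). It was the 1 gene of the 10 whose single libraries did not overlap. Pdgfb, the endothelial signal to pericytes, had 5.33, 23.0 and 17.2 CPM at 5 mM and 1.37, 2.74 and 4.75 CPM at 25 mM. The replicates did not overlap, although 5 mM replicate 1 was near the 25 mM range, and the log2 fold change was -2.36 (standard error 0.61).

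In all, 9 of the 10 log2 fold changes were below 0 and 7 were under -1, a limit passed by 9.27% of the 21061 genes tested. The replicates of 6 genes (Angptl2, Angpt2, Rhoj, Apln, Aplnr and Pdgfb) did not overlap and were lower at 25 mM, as did those of 15.8% of all genes tested. The median of the 10 was -1.45, and that of all genes tested -0.01. Since the genes were picked with this contrast known, nothing is read from these counts. Without the first technical replicate of 25 mM replicate 2 the median was -1.21, and 5 genes did not overlap and were lower at 25 mM. So were 12.9% of all genes tested in that fit. Apln (log2 fold change -1.01) was the one that then overlapped. Without the second technical replicate of 5 mM replicate 1 the median was -1.62. There 7 genes did not overlap and were lower at 25 mM (17.1% of all genes tested), Pgf (-1.24) being added.

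By batch, 9 of the 10 genes were further below 0 in batch 1 than in batch 2, the exception being Angpt1 (0.58 and -0.31). Medians of the 10 were -2.30 for batch 1 and -0.62 for batch 2. Angptl2 had -4.02 (standard error 0.56) and -1.52 (0.71), and Angpt2 had -3.53 (0.60) and -1.10 (0.85). Apln and Vegfc had values on either side of 0. For Apln they were -2.60 (0.91) in batch 1 and 0.21 (0.80) in batch 2, and for Vegfc -1.31 (0.46) and 0.53 (0.49). In batch 1 alone 8 genes had lower replicates at 25 mM that did not overlap, where 20.6% of all genes tested did. In batch 2 alone only Aplnr did (-1.34, standard error 0.44), where 7.91% of all genes tested did. The difference between the batches itself was not tested. Batch 1 holds the first and batch 2 the second technical replicates, so batch and technical replicate cannot be told apart.

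**Figure D2:**
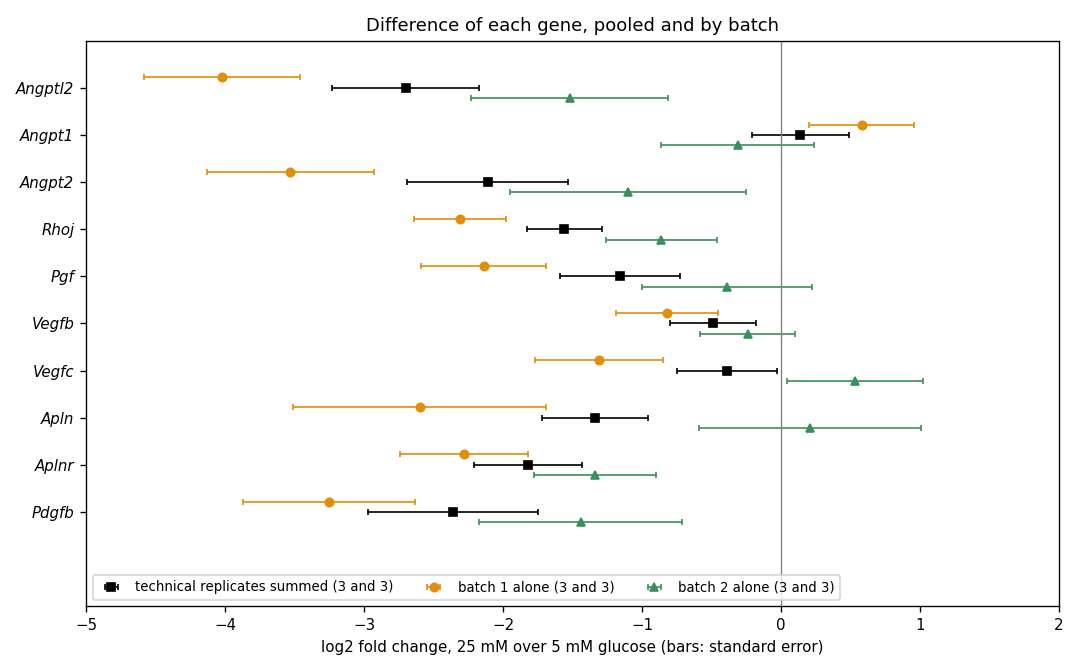
Log2 fold change of 25 mM over 5 mM glucose with its standard error for each of the 10 genes, with technical replicates summed (squares) and for batch 1 (circles) and batch 2 (triangles) alone, each from 3 and 3 replicates. In batch 1, 9 of the 10 points lie below 0, while in batch 2 there are 8, and the batch 2 point is the nearer to 0 for all 10 genes.

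Levels between genes were compared as mean CPM per kilobase of merged exons, without a test. Merged exons can be much longer than a gene's main transcript. They were 6484 bases for Rhoj against 2350 for Rhoj-201, and 6286 for Angptl2 against 3339 for Angptl2-201. For Angpt2 they were 3690 bases against 3560 for Angpt2-201. The order and places below hold for this divisor only, and another length could change them. At 5 mM, Angpt2 (27.9 ± 9.95, SD, n = 3) and Rhoj (26.6 ± 2.31) were highest, and their replicate ranges overlapped. Next came Angptl2 (14.8 ± 6.67) and Pgf (14.6 ± 5.78), which overlapped each other and were below Rhoj in every replicate. Vegfb (5.63 ± 1.32), Pdgfb (3.65 ± 2.17) and Aplnr (3.32 ± 0.542) followed, each overlapping its neighbour. Apln (2.07 ± 0.786), Vegfc (0.870 ± 0.263) and Angpt1 (0.275 ± 0.0277) each lay below the gene before them in every replicate. At 25 mM the order was Rhoj (9.00 ± 3.34), Pgf (6.55 ± 3.00), Angpt2 (6.45 ± 4.20), Vegfb (4.00 ± 1.11) and Angptl2 (2.28 ± 1.31), then Aplnr, Apln, Pdgfb and Vegfc between 0.937 and 0.667, each overlapping its neighbours. Angpt1 (0.303 ± 0.118) stayed last and below Vegfc in every replicate. Angptl2 thus stood at place 3 at 5 mM and at place 5 at 25 mM, and Vegfb at places 5 and 4.

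Markers of vascular and other retinal cell types were measured in the same libraries. The summed level of 13 endothelial markers was 943 to 1930 CPM in the 5 mM replicates and 170 to 734 CPM in the 25 mM replicates. In single libraries this sum overlapped between the groups, at 390 to 2360 CPM for 5 mM and 89.3 to 924 CPM for 25 mM. Pecam1, an endothelial adhesion molecule, was the highest (log2 fold change -1.94, with -3.21 in batch 1 and -0.81 in batch 2). Of the 13 markers 12 had a log2 fold change below 0, with a median of -1.82. None passed an FDR of 0.05 in the edgeR quasi-likelihood test or with limma-voom, 12 had an unadjusted p under 0.05, and DESeq2 called 11 lower, where it called 9.54% of all genes lower. In bulk RNA, fewer cells of a type and less RNA per cell cannot be told apart. The 10 pericyte and smooth muscle markers had a median of -1.49 and 8 below 0, yet their summed level was 427 to 515 CPM at 5 mM and 343 to 498 CPM at 25 mM, since Rgs5, the highest of them, was at 0.09. One of them, Vtn, rose (1.32, FDR 0.0475), 0 fell by edgeR or limma-voom, 8 had an unadjusted p under 0.05 with a value below 0, and DESeq2 called 8 lower.

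Fibroblast markers summed to 191 to 214 CPM at 5 mM and 27.7 to 135 CPM at 25 mM, with Dcn the highest. Their sums in single libraries overlapped (101 to 265 CPM and 13.1 to 170 CPM). Of the 6 tested 1, Col3a1, fell (-2.36, FDR 0.0326), while DESeq2 called 4 lower. The 8 microglial markers reported, of which C1qb was the highest, summed to 98.5 to 235 CPM at 5 mM and 54.4 to 122 CPM at 25 mM, which overlap. All 8 were below 0, 0 were called by edgeR or limma-voom, 6 had an unadjusted p under 0.05, and DESeq2 called 3. Rod photoreceptor markers moved the other way, with sums of 1730 to 2570 CPM at 5 mM and 3850 to 4840 CPM at 25 mM. In single libraries these sums overlapped, at 1640 to 2800 CPM and 2590 to 6630 CPM. The technical replicates of 25 mM replicate 2 gave 6120 and 2590 CPM. Of the 9 reported 6 rose (edgeR quasi-likelihood test, FDR under 0.05), where 1.47% of all genes tested did. Gnat1, the rod transducin gene, was the highest of these and was not called (log2 fold change 0.45, FDR 0.308). Sums for the astrocyte, Mueller glia and horizontal cell lists overlapped between the groups (astrocyte 371 to 566 and 413 to 432 CPM, Mueller glia 2120 to 2300 and 1680 to 2470 CPM, horizontal cell 156 to 223 and 161 to 213 CPM), with Gfap, Glul and Prox1 their highest genes. Gfap (mean 355 CPM) and Prox1 (152 CPM) made up most of their sums. Single genes of these lists went both ways, with 0 calls by edgeR or limma-voom. DESeq2 called 1 astrocyte and 1 Mueller glia marker lower, 0 of these lists higher, and 0 horizontal cell markers. Of 5 astrocyte markers 4 were below 0. By edgeR, 2 astrocyte markers were lower and 1 higher at an unadjusted p under 0.05. Of 5 Mueller glia markers 3 were below 0, 1 with such a p. Of 5 horizontal cell markers 3 were below 0, 0 with such a p. Pigment epithelium markers were low at 14.3 to 16.5 and 9.16 to 12.4 CPM, led by Mitf, and Rpe65 and Pmel did not pass the filter. Their sums in single libraries overlapped (9.63 to 19.7 and 7.68 to 13.8 CPM). Mitf made up most of them, with means of 12.1 and 7.20 CPM. Of the 5 tested 4 were below 0 and 1, Rgr, was above (1.41, FDR 0.103). There were 0 calls by edgeR or limma-voom, while DESeq2 called 1 lower and 1 higher. The part of these cell types in the values of the 10 genes was not tested.

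**Figure D3:**
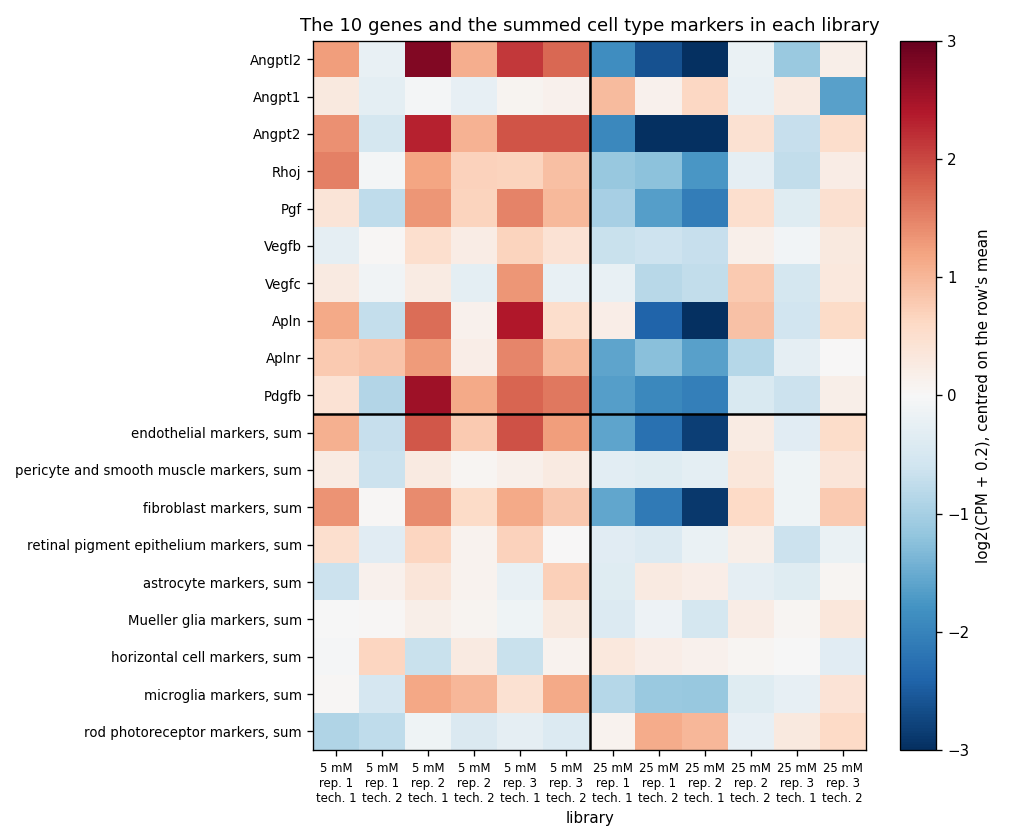
Level of the 10 genes and of the summed markers of 9 cell types in the 12 libraries, as log2(CPM + 0.2) centred on each row's mean, with red above and blue below. The rows of Angptl2, Angpt2 and Pdgfb and of the endothelial and fibroblast sums are high in the first technical replicate of 5 mM replicate 2 and at their lowest in that of 25 mM replicate 2, where the Angpt1 row is above its mean.

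As a description, each gene was also set against the summed endothelial markers. Angptl2 was 5.01% to 7.29% of that sum at 5 mM and 3.00% to 3.31% at 25 mM, and Angpt2 was 6.43% to 6.98% and 3.68% to 5.97%. Both were lower at 25 mM with no overlap of replicates. Rhoj was 8.07% to 19.5% of the sum at 5 mM and 11.1% to 22.5% at 25 mM, Aplnr 0.641% to 1.15% and 0.538% to 1.24%, Apln 0.354% to 0.472% and 0.403% to 0.995%, and Pdgfb 0.565% to 1.30% and 0.555% to 0.804%, so these 4 overlapped. Relative to the same sum, Pgf (2.49% to 2.87% and 3.52% to 5.43%), Vegfb (0.541% to 0.711% and 1.10% to 2.67%) and Vegfc (0.0955% to 0.194% and 0.225% to 0.641%) were higher at 25 mM with no overlap. Angpt1 was 0.0713% to 0.159% and 0.132% to 1.30% of it, which overlap. The sum itself did not overlap between the groups (943 to 1930 CPM at 5 mM and 170 to 734 CPM at 25 mM). A gene of constant level would thus be higher relative to it at 25 mM with no overlap. In CPM, Pgf, Vegfb and Vegfc had log2 fold changes below 0 (-1.16, -0.49 and -0.39). The share of all genes with such ratios was not counted. Such a ratio shows that the gene and the sum differed by unequal factors and does not say which of them changed.

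The other genes of these pathways, 35 in 8 lists, were tested in the same fit, of which 34 passed the filter. With adjustment over all 21061 genes in the edgeR quasi-likelihood fit, 1 fell and 1 rose past an FDR of 0.05. Over all genes tested 417 were called (1.98%), 108 lower (0.513%) and 309 higher (1.47%). The one that fell was Nrp1, a co-receptor for VEGF and class 3 semaphorins. It had 40.9, 58.9 and 54.5 CPM at 5 mM and 11.9, 18.6 and 24.2 CPM at 25 mM, which do not overlap. Its log2 fold change was -1.49 (standard error 0.28, FDR 0.0456), -2.35 in batch 1 and -0.58 in batch 2. The one that rose was Apela, a second peptide ligand of the apelin receptor, with 5.64, 3.64 and 4.25 CPM at 5 mM and 10.3, 14.3 and 11.1 CPM at 25 mM. Its log2 fold change was 1.40 (standard error 0.28, FDR 0.0475), 1.63 and 1.20 in the 2 batches, while Apln and Aplnr were below 0. Exons of Apela share 297 bases with Gm45886 on the same strand, so its reads may be split or shared with that gene.

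Of the 34 genes, 30 had a log2 fold change below 0, where 50.7% of all genes tested did, 23 of them with an unadjusted p under 0.05 (15.5% of all genes). Of the 4 above 0, 2 had such a p (13.2% of all genes). The median of the 34 was -0.96. In 18 genes the replicates did not overlap and were lower at 25 mM, beside the 15.8% of all genes named above, and in 2 (Apela and Angptl7) they were higher, as in 16.0% of all genes. DESeq2 called 18 lower and 2 higher (9.54% and 7.03% of all genes), and limma-voom 1 and 1 (0.565% and 1.42%). Both calls were lost without 5 mM replicate 2 or 3, without 25 mM replicate 1 or 2, and without the first technical replicate of 25 mM replicate 2 (FDR 0.132 for Nrp1 and 0.129 for Apela), and Apela also without 25 mM replicate 3 (FDR 0.0538). With 5 mM replicate 1 left out, 19 of the 34 were called lower and 2 higher, in a fit that called 14.9% of all genes lower and 11.7% higher.

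By role, the list of angiopoietin-TIE ligands and receptors, which includes the further angiopoietin Angpt4, gave 4 of 5 values below 0, a median of -1.38 and 0 calls with edgeR or limma-voom, with 3 at an unadjusted p under 0.05 and 3 called by DESeq2. The receptor gene Tek, which encodes TIE2, was at -1.38 (standard error 0.47, FDR 0.109), its partner Tie1 at -2.67 (0.66, FDR 0.0673), and Ptprb, a phosphatase that acts on TIE2, at -1.79 (0.47, FDR 0.0719). The other angiopoietin-like genes had 4 of 5 tested below 0 and 0 calls with edgeR or limma-voom, with 4 at an unadjusted p under 0.05 and 2 called by DESeq2. Angptl4, an inhibitor of lipoprotein lipase, was at -2.30 (0.62, FDR 0.0741), Angptl6 at -1.14 (0.44, FDR 0.141) and Angptl1 at -1.18 (0.37, FDR 0.0960). Angptl1 was under 1 CPM in every replicate. Exons of Angptl1 and Angptl6 share 465 and 265 bases with genes on the opposite strand. Angptl7, chosen for mention after its values were seen, was at 1.60 (0.39, FDR 0.0654) and under 1 CPM in every replicate, and Angptl8 had no counts. Of the receptors of ANGPTL2, all 3 were below 0 and 0 were called by edgeR or limma-voom, though all 3 had an unadjusted p under 0.05 and all 3 were called by DESeq2. Pirb was at -1.97 (0.50, FDR 0.0688), and the integrin genes Itga5 and Itgb1 were at -1.43 (0.55, FDR 0.137) and -1.04 (0.30, FDR 0.0801).

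All 7 tested VEGF genes were at or below 0, with a median of -1.20. Nrp1 was the 1 call with edgeR and with limma-voom, 5 had an unadjusted p under 0.05, and DESeq2 called 5 lower. Kdr, the main VEGF receptor, was at -0.03 (standard error 0.17, FDR 0.915), with 220 ± 30.1 CPM at 5 mM and 215 ± 16.7 CPM at 25 mM (SD, n = 3). It was -0.45 in batch 1 and 0.46 in batch 2, and its sign also turned with library totals as the scaling (0.02). Flt4, the receptor for Vegfc, was at -2.23 (0.59, FDR 0.0728), and the co-receptor gene Nrp2 at -1.20 (0.31, FDR 0.0718), both chosen for mention after their values were seen. Flt1, the receptor for Pgf and Vegfb, was at -0.85 (0.25, FDR 0.0838), and Vegfa was at -0.29 (0.24, FDR 0.455). PDGF genes gave 4 of 5 below 0 and 0 calls with edgeR or limma-voom, with 4 at an unadjusted p under 0.05 and 2 called by DESeq2. Pdgfrb, the pericyte receptor for PDGF-B, was at -2.46 (0.56, FDR 0.0594), Pdgfra at -0.72 (0.26, FDR 0.122) and Pdgfa, whose exons overlap an antisense gene, at -1.54 (0.51, FDR 0.103).

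The relatives and partners of RhoJ had all 4 values below 0 with a median of -0.44 and 0 calls by edgeR or limma-voom, with 2 at an unadjusted p under 0.05 and 1 called by DESeq2. The most similar GTPase genes were near 0, Rhoq at -0.19 (0.29, FDR 0.688) and Cdc42 at -0.23 (0.22, FDR 0.512), and both were above 0 in batch 2 alone (0.21 and 0.02). Sema3e, a ligand of the plexin D1 receptor that acts on RhoJ in retinal endothelium, was at -0.65 (0.23, FDR 0.115). The receptor gene Plxnd1, chosen for mention after its values were seen, was the furthest below 0 of this list. It was at -2.07 (0.60, FDR 0.0836), with -3.12 in batch 1 and -1.01 in batch 2, and its replicates overlapped. Of the 4 transcription factor genes all were below 0, 0 were called by edgeR or limma-voom, 3 had an unadjusted p under 0.05 and DESeq2 called 3. Erg, an endothelial ETS factor, was at -1.64 (0.49, FDR 0.0885), Epas1 at -0.88 (0.29, FDR 0.101), and Hif1a, the hypoxia factor gene, at -0.08 (0.25, FDR 0.851).

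**Figure D4:**
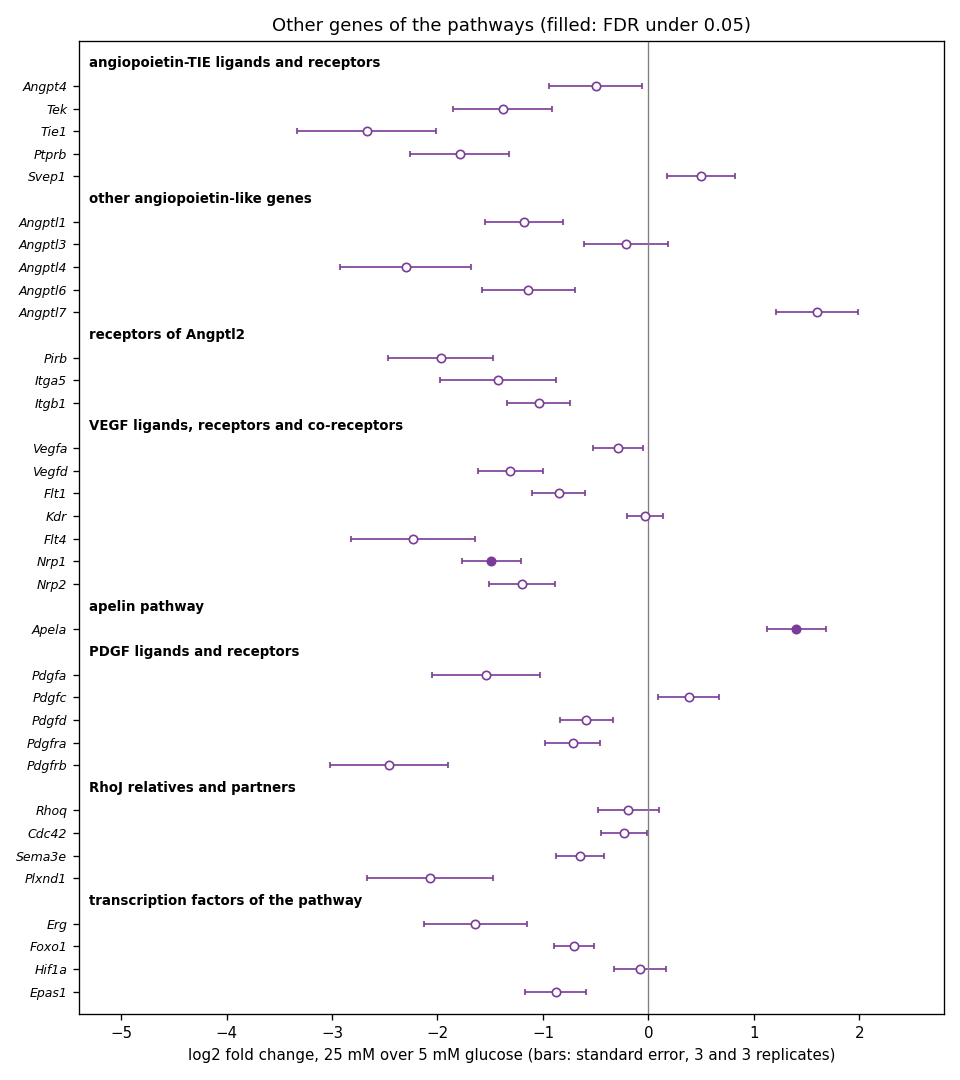
Log2 fold change of 25 mM over 5 mM glucose with its standard error (3 and 3 replicates) for the 34 tested genes of the 8 pathway lists; filled points passed an FDR of 0.05. Nrp1 at -1.49 and Apela at 1.40 are the filled points, and 30 of the 34 lie below 0.

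Transcript usage, the share of a gene's counts that each of its transcripts takes, is a measure that the choice of genes did not use. Of the 10 genes, 7 had 2 or more transcripts that could be tested. Of these 7, 0 passed an FDR of 0.05 with edgeR's diffSpliceDGE (lowest FDR 0.263) or with limma's diffSplice (lowest FDR 0.286), and 1, Vegfb, had an unadjusted p under 0.05 in each. Over all 12104 genes tested 146 were called by edgeR (1.21%) and 65 by limma (0.537%).

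Vegfb had the largest difference in mean share of the 7. The share of the transcript Vegfb-202 was 67.2% ± 8.60 at 5 mM and 83.2% ± 4.38 at 25 mM, and that of Vegfb-201 was 32.0% ± 8.27 and 13.4% ± 3.73 (SD, n = 3). Both are protein coding, and the FDR was 0.263. For Rhoj, the main transcript Rhoj-201 took 91.6% ± 1.10 and 85.2% ± 3.64, and the longer protein coding Rhoj-203 took 7.62% ± 0.615 and 14.4% ± 3.83 (FDR 0.471). Angptl2-201, the coding transcript, took 94.8% ± 0.955 and 87.0% ± 7.12, and the retained-intron transcript Angptl2-203 took 4.62% ± 0.900 and 11.8% ± 7.11 (FDR 0.580). Pdgfb-202, also a retained-intron transcript, was at 8.25% ± 3.06 and 16.6% ± 2.69 (FDR 0.549). Angpt2-201 held 98.8% ± 0.666 and 98.0% ± 1.75 of its gene's counts (FDR 0.761), and Angpt1-201 held 77.1% ± 11.6 and 74.3% ± 6.98 (FDR 0.846). Pgf-201 ranged from 59.6% to 96.8% at 5 mM and from 53.1% to 91.8% at 25 mM (FDR 0.868), a spread within each group far wider than the difference of the means. None of these shares differed beyond the threshold.

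**Figure D5:**
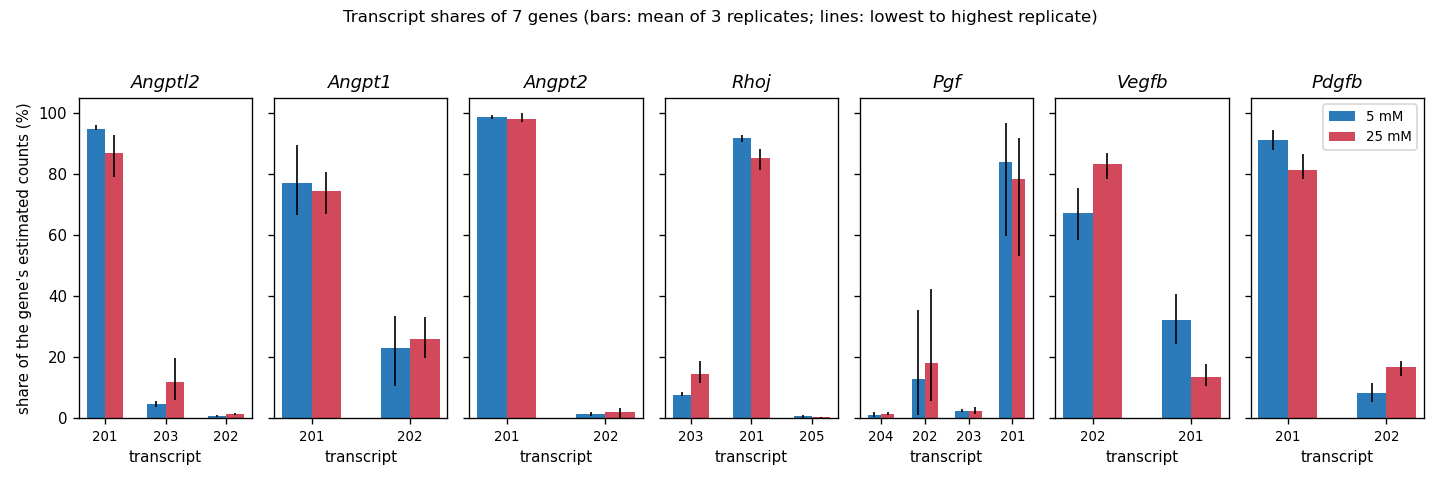
Share of each gene's estimated counts in its tested transcripts for 7 genes at 5 mM (blue) and 25 mM (red); bars are means of 3 replicates and lines run from the lowest to the highest replicate. The largest difference in mean share is that of Vegfb-201, 32.0% at 5 mM and 13.4% at 25 mM, which did not pass the test.

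Genes most like Angptl2 in pattern over the 12 libraries, by the root mean square difference of log2 CPM centred on each gene's mean, were Kit (0.329), Col5a2 (0.336), Angpt2 (0.336), Lamb1 (0.353) and Adgre5 (0.356). Angptl2 itself varied by 1.82 on this scale. Angpt2, another of the 10 genes, was thus at place 3 among all genes tested. For Rhoj, which varied by 1.00, the nearest were Fam43a (0.170), Boc (0.185), Mmp19 (0.197), Nedd9 (0.212) and an unnamed gene, ENSMUSG00000120992 (0.240). No other member was among the 5 nearest to Rhoj. Likeness over libraries that share depth, batch and tissue content is a description and has no test.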

How the data were processed

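RNA-seq of retinal explants was done by the authors with a stranded total RNA kit (SMARTer Pico v2), 4 ng of RNA and paired reads, on GRCm38 per the labels. The deposited gene and transcript tables hold estimated counts, which are not whole numbers, for 12 libraries. The counter and its strand setting are not given in the sources used here. Genes were named from GENCODE release 21 for mouse, which matched 90.8% of gene rows.

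From these, technical replicates were summed and rounded, and a quasi-likelihood fit of 25 mM against 5 mM (edgeR 4.0.16, TMM, filterByExpr, R 4.3.3) gave log2 fold changes, Benjamini-Hochberg adjusted p-values (FDR) over 21061 genes, and CPM. Transcript usage was tested with diffSpliceDGE, and with limma 3.58.1 (diffSplice), added after seeing the data because edgeR's test called too many genes on simulated data. Alternatives included DESeq2 1.42.0, limma-voom, other scalings and filters, each batch alone, a replicate block and each replicate left out. With 3 replicates a group, which may share animals, p-values measure the spread between these samples only. Intervals are standard errors, and libraries of 14815285 or more counts limit the precision of low genes.

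The members and lists were chosen with earlier results of these data known. Named were every member, of the pathway lists every gene at an FDR under 0.05 and the 3 with the highest mean CPM in each list, the 5 genes nearest in pattern to Angptl2 and Rhoj, and the highest gene of each marker list. The ratio to endothelial markers was added after values were seen. Of the marker genes, 2 are not reported here and were left out of their lists.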

Additional observations from a re-analysis of the deposited data

Results flagged for a closer look

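The 10 genes and the pathway genes named by the rule gave 66 groups of 6 libraries, with each concentration apart. In 3 groups 1 library lay far from the other 5. At a rate of 1 in 20, 66 groups of independent libraries would give 3.3. These libraries come in technical pairs, and the Rhoq and Cdc42 flags share 1 library, so nothing is read from that rate. Vegfc had 4.45 CPM in the first technical replicate of 5 mM replicate 3, where the other 5 libraries at 5 mM had 1.30 to 2.02 CPM. Rhoq had 88.0 CPM in the second technical replicate of 25 mM replicate 2, where the other 5 at 25 mM had 45.7 to 53.8 CPM. Cdc42 had 694 CPM in the same library, where the others had 479 to 535 CPM. That library is the partner of the one with the lowest total and the highest mitochondrial share.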

How the results depend on the processing

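The direction of the members' median (-1.45) held under every alternative run. It was -2.30 in batch 1 and -0.62 in batch 2, and -1.67 to -1.21 with a replicate left out. Of 200 values for single members under 20 alternatives, 13 moved by more than the spread between replicates, all with 1 batch alone. Of the 6 members whose replicates did not overlap, 1 was left in batch 2. With a replicate left out, 6 to 8 members did not overlap and were lower at 25 mM. So were 17.1% to 32.0% of all genes (32.0% without 5 mM replicate 1). Signs turned for Angpt1 (-0.31 in batch 2, -0.17 without 25 mM replicate 1), Vegfc (0.53 in batch 2) and Apln (0.21 in batch 2). Members with a change in transcript usage numbered 0 in every alternative.

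Counts of calls depended on the choices. All genes called (417) numbered 1979 with no filter on low counts, 3489 with DESeq2, 3279 in batch 1, 0 in batch 2, 0 to 5845 with a replicate left out, 0 without the first technical replicate of 25 mM replicate 2, 1731 without the second of 5 mM replicate 1, and 0 at an FDR under 0.01 with a fold change over 2. Pathway genes called lower (1) numbered 0 with library totals, 15 with no filter, 18 with DESeq2, 17 in batch 1, 0 in batch 2, 0 with the transcript table, 0 to 19 with a replicate left out, 0 and 12 without the first and second of those technical replicates, and 0 at the stricter threshold. Those called higher (1) numbered 2 with DESeq2, 2 in batch 1, 0 in batch 2, 0 at equal depth, 0 with the transcript table, 0 to 2 with a replicate left out, 0 and 2 without those technical replicates, and 0 at the stricter threshold. The cause was not tested.

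With the replicate number as a block, 990 genes were called, with 13 pathway genes lower and 0 higher, and 0 members in usage. Whether the numbers pair the samples is not given in the sources used here. Over all genes tested, deviations of same-numbered replicates correlated at -0.0138, -0.449 and 0.285. The best match of 5 mM replicate 1 was 25 mM replicate 2 (0.511). Such correlations cannot exclude a pairing. With the block the standard error was larger for Rhoj (0.28, 0.27 without it), Angpt1 (0.37, 0.35) and Vegfc (0.37, 0.36). It was smaller for the other members, such as Angptl2 (0.25, 0.53 without it).

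Among pathway genes, signs turned for Kdr (0.02 with library totals, 0.02 with at least 1 CPM in 3 replicates, 0.46 in batch 2, -0.14 to 0.03 with a replicate left out), Rhoq (0.21 in batch 2, -0.37 to 0.18 with a replicate left out), Cdc42 (0.02 in batch 2), Hif1a (-0.24 to 0.20 with a replicate left out) and Epas1 (0.04 in batch 2). Depth limits Angpt1, Vegfc and Apln, which are at a few CPM. At 25 mM it also limits Pdgfb (1.37 to 4.75 CPM) and Aplnr (2.11 to 5.63 CPM).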
